A study of Mus musculus with 4 samples.

Results

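The exons described here are simple cassette exons, exons that are either kept in a transcript or skipped as 1 unit between the same 2 neighbours, that are longer than 50 nt and whose length is a multiple of 3. They were taken from a deposited table of splicing events if each of the 4 libraries had at least 10 reads across the exon's junctions and if inclusion and skipping each had at least 5 reads over all libraries. That left 1548 exons of 1313 gene symbols, out of 7876 splicing events that passed the same read filter and out of 14636 exons of this kind in the table. Tissue labelled as the remote area of the heart came from infarcted and from uninjured mice. Infarcted hearts were taken 7 days after the left anterior descending coronary artery had been tied permanently. Polyadenylated RNA was sequenced in 2 libraries of each group. All mice were C57BL/6. The labels state neither age nor sex, nor whether the uninjured animals had a sham operation. The labels do not state that each library is a separate mouse. Each is taken here as 1 heart, so every comparison rests on 2 infarcted against 2 uninjured libraries.

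A cassette exon changes the protein without moving the reading frame only when its length is a multiple of 3, because codons are read in steps of 3 bases. Skipping such an exon removes a stretch of amino acids and leaves the rest of the protein as it was, whereas skipping any other length shifts the frame and usually brings in an early stop codon and decay of the transcript. In heart muscle, exons of this kind are known to adjust Z-disc, adhesion, calcium-handling and membrane-trafficking proteins, and many of them switch between fetal and adult forms under RNA-binding proteins of the RBFOX, PTB, MBNL and CELF families.

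The sequences below are those of 6 exons that were included less often in infarcted hearts, shown because they are among the exons with the largest differences or with the smallest p of the gene lists used further down. They were read from the transcripts of GENCODE release 21 on GRCm38, 5′ to 3′ on the coding strand. Capitals mark the cassette exon and lower case the 15 transcript bases on either side, so that skipping joins the 2 lower-case ends directly.
Cad, 51 nt, chr5:31075471-31075521 (plus strand): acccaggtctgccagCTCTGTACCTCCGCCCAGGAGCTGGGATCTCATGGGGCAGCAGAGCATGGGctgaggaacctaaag
Cdc42bpa, 186 nt, chr1:180155795-180155980 (plus strand): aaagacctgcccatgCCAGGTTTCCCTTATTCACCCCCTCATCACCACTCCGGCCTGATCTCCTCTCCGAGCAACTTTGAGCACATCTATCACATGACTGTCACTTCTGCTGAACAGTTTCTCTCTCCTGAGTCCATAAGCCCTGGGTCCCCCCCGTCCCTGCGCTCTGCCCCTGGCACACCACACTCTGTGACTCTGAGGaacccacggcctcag
Eml1, 51 nt, chr12:108503183-108503233 (plus strand): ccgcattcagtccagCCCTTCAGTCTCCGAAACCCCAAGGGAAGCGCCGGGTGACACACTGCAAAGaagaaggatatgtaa
Ppfibp1, 93 nt, chr6:146996809-146996901 (plus strand): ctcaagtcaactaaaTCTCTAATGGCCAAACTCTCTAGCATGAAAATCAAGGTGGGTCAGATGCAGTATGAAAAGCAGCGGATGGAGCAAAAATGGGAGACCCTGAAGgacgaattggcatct
Zfp207, 93 nt, chr11:80393084-80393176 (plus strand): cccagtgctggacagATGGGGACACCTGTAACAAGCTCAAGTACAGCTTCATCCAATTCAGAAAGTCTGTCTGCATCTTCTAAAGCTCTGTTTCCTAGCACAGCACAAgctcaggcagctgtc
Palld, 51 nt, chr8:61534858-61534908 (minus strand): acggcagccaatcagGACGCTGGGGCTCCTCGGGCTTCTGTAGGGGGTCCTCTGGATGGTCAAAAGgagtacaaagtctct

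Both of the following exons were included more often in infarcted hearts and are shown in the same way.
Ctage5, 129 nt, chr12:59176331-59176459 (plus strand): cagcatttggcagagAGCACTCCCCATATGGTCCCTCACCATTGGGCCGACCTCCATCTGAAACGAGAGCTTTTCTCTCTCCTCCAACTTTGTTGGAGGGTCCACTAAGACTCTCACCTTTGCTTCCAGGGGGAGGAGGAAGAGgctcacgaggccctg
Kank1, 246 nt, chr19:25424138-25424383 (plus strand): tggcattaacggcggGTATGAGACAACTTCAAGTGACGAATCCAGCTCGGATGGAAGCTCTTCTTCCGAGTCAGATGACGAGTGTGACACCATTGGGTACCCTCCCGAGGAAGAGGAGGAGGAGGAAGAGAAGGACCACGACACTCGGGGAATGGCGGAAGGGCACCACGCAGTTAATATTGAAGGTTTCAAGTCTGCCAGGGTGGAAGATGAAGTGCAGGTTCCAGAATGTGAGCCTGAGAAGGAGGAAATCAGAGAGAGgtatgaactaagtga

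The 51-nt exons of Cad, Eml1 and Palld add 17 codons each to the protein and have a GC content of 64.7%, 60.8% and 62.7%. Exons of Cdc42bpa, Ppfibp1, Zfp207 and Palld start exactly at a codon boundary, that is, in phase 0, so their capitals read directly as codons. The Kank1 exon starts in phase 1, and the Cad, Eml1 and Ctage5 exons in phase 2, which here means that the first 1 or 2 bases of the exon complete a codon begun upstream. Skipping of the Kank1 exon is not an annotated junction, whereas skipping of the other 7 exons shown is.

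Of the 1548 exons, 1400 were tied to an annotated GENCODE exon by gene, exon length and the lengths of both flanking introns. Among these, 1221 exons (87.2%) lay wholly in coding sequence, 96 lay partly in it, 58 lay outside the coding part of their transcript and 25 belonged to transcripts without a coding part. Frame-shifting simple exons of the same length range, which passed the same read filter and numbered 1650, were wholly coding in 78.0% of the matched cases. Of the frame-preserving coding exons, 658 (53.9%) started in phase 0, compared with 40.0% of the frame-shifting ones. The junction that skips the exon was annotated for 813 of the 1400 exons (58.1%), and for 49.5% of the frame-shifting exons. The median length was 108 nt, with quartiles at 78 and 147 nt and the longest at 4962 nt. Most genes were represented once, with 1115 genes holding 1 exon, 171 holding 2, 19 holding 3, 6 holding 4 and 2 holding 5. Exons of the same gene share transcripts and are not independent of each other.

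Library totals were between 35715115 and 70885393 gene counts. Behind each inclusion level stood a median of 71 and 60 junction reads in infarcted replicates 1 and 2, and of 64 and 79 reads in uninjured replicates 1 and 2, and 1256 of the exons had at least 20 reads in every library. Intervals and limits quoted for single libraries cover counting error only, since reads from amplified libraries are not independent molecules.

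Cell type markers differed between the groups, given here as summed CPM, that is, counts scaled to library size, with edgeR calls at an adjusted p below 0.05. In bulk tissue fewer cells of a type and less RNA per cell cannot be told apart. Summed cardiomyocyte markers were 39754 and 34900 CPM in infarcted hearts, compared with 60766 and 74764 CPM in uninjured hearts, and 6 of 10 fell. Summed fibroblast markers were 6712 and 5848 CPM in infarcted hearts, compared with 865 and 858 CPM in uninjured hearts, and 5 of 8 rose. Myofibroblast markers summed to 1996 and 1364 CPM in infarcted hearts, compared with 146 and 179 CPM in uninjured hearts (5 of 6 rose), and macrophage markers to 422 and 435 CPM, compared with 150 and 132 CPM (7 of 7 rose). None of 6 endothelial markers passed the test, while 2 of 4 smooth muscle markers rose. Atrial markers summed to 295 and 1948 CPM in infarcted hearts, compared with 88.6 and 49.4 CPM in uninjured hearts, and 0 of 3 tested passed. In infarcted replicate 1 nearly all of the sum was Nppa (294 CPM), with Myl4 at 1.34 and Myl7 at 0.080 CPM. In infarcted replicate 2 Nppa, Myl4 and Myl7 were at 1456, 361 and 132 CPM, so that this library stood apart. Uninjured hearts had 1.42 and 2.44 CPM of Myl4 and 0.271 and 0.319 CPM of Myl7. Lymphocyte markers were near 0 throughout, at 2.42 and 0.715 CPM in infarcted hearts and 3.99 and 4.09 CPM in uninjured hearts, and 1 of 4 tested fell. The part of these cell types in the inclusion levels was not tested.

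Most of these exons were kept in most transcripts. The median inclusion level, the percent of junction reads that include the exon, was 90.4% and 88.5% in infarcted replicates 1 and 2, compared with 90.2% and 90.6% in uninjured replicates 1 and 2. The mean of the library medians was 89.4% in infarcted hearts and 90.4% in uninjured hearts (n = 2 each), a difference of -0.978 points with an exact two-sided permutation p of 0.667, where 0.333 is the smallest p that 2 against 2 libraries can give. Averaged over the 4 libraries, 785 exons (50.7%) were above 90% inclusion, 402 were between 50 and 90%, 238 between 10 and 50%, and 123 at 10% or less. Intermediate levels were more common than among the frame-shifting exons, of which 62.0% were above 90% and 9.09% between 10 and 50%, against 15.4% in that second range for the frame-preserving exons. The same range held 23.2% of simple exons of up to 50 nt and 16.8% of all events, so intermediate levels were not particular to the frame-preserving exons. No test was made across exons for these differences in levels.

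**Figure D1:**
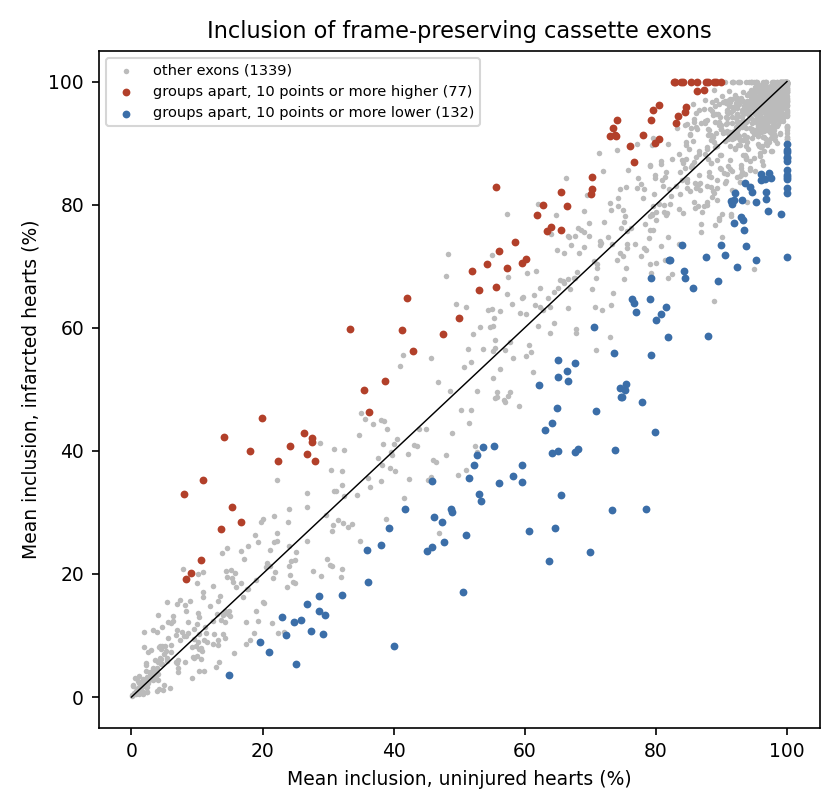
Each point is 1 of the 1548 exons, with the mean inclusion level of the 2 infarcted hearts (vertical axis, %) against that of the 2 uninjured hearts (horizontal axis, %). Coloured points are the 77 exons higher and the 132 exons lower in infarcted hearts whose groups do not overlap and whose means lie at least 10 points apart, and the diagonal marks equal inclusion.

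No exon reached an adjusted p below 0.05 when edgeR was used to ask, by its quasi-likelihood test, whether the ratio of inclusion to skipping reads differed between the groups. The adjustment was by Benjamini-Hochberg over all 7876 events, of which 0% were called, and the smallest adjusted p was 0.733. At an unadjusted p below 0.05 the edgeR test listed 134 exons (8.66%), compared with 6.68% of all events, and of these 53 were higher in infarcted hearts (background 2.45%) and 81 lower (background 4.23%). The share was 8.67% for frame-shifting exons over 50 nt and 2.14% for alternative splice sites, so it was not particular to the frame-preserving exons. The DESeq2 likelihood-ratio test and limma on the logit of inclusion also called 0 exons, with 86 and 144 at an unadjusted p below 0.05. Limma in which each level was weighted by its counting error and an overdispersion called 27, of which 4 were higher and 23 lower in infarcted hearts, against 1.26% of all events. On simulated data this weighted fit also made false calls. The spread simulated between libraries was set and not fitted to these data, so it gives no rate of false calls here. Because the other fits called 0 exons, the 27 calls and their directions are not relied on here. The differences below are therefore given as measured values in each library, and none of them passed the edgeR test.

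In 613 exons (39.6%) both infarcted levels lay above or both below the 2 uninjured levels, close to the 38.6% of all events. Of these, 253 were higher in infarcted hearts (background 17.7%) and 360 lower (background 20.9%). Group means at least 10 points apart were seen in 209 exons (13.5%), compared with 12.0% of all events, and these were split into 77 higher (background 5.31%) and 132 lower in infarcted hearts (background 6.70%). Without infarcted replicate 1 the count of 209 became 334, with 129 higher and 205 lower. Leaving out any library leaves fewer values that can overlap, and the count was 274 to 296 without each of the other libraries. The share over all events was not taken with a library left out, so these counts have no background beside them. Why the count was highest without infarcted replicate 1 was not tested. Without infarcted replicate 2, the library apart in atrial markers, 119 were higher and 155 lower. At 20 points or more, 8 exons were higher (background 1.09%) and 40 lower (background 1.70%). Among the 1256 exons with at least 20 reads in each library, 4 were higher by 20 points or more and 19 lower. The background at that depth was 27 of 6141 events higher (0.440%) and 63 lower (1.03%).

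Frame-shifting exons over 50 nt had groups apart by 10 points or more in 144 of 1650 cases (8.73%), with 60 higher and 84 lower in infarcted hearts. Simple exons of up to 50 nt showed it in 62 of 392 cases (15.8%), with 14 higher and 48 lower. Alternative splice sites were the only class of the 5 shown in the plot of separated events by class in which higher was more frequent than lower, with 136 higher and 105 lower.

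**Figure D2:**
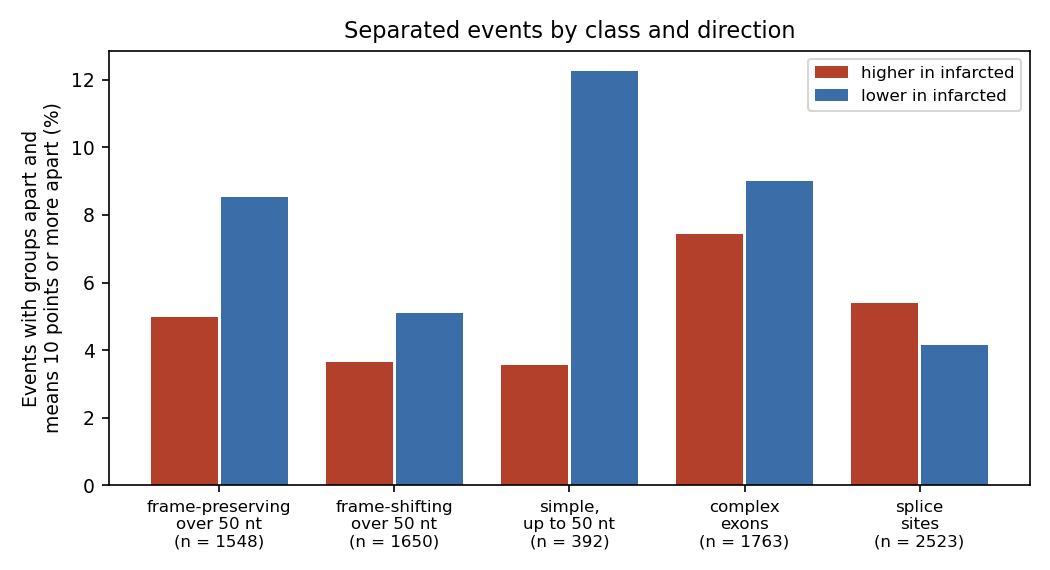
Bars give the share of events (%) whose infarcted and uninjured levels do not overlap and whose means lie at least 10 points apart, with events higher in infarcted hearts left of those lower in infarcted hearts, for each class of splicing event and its number of events. Frame-preserving exons over 50 nt were lower in 8.53% and higher in 4.97% of cases.

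The share of such exons varied with inclusion level and depth. Of the exons between 10 and 50% inclusion 69 of 238 (29.0%) had groups at least 10 points apart, of those between 50 and 90% it was 108 of 402 (26.9%), of those above 90% it was 31 of 785 (3.95%) and of those at 10% or less it was 1 of 123. The skipping junction was annotated for 143 of the 180 matched exons with such a difference (79.4%), against 58.1% of all matched exons. These 2 sets were not matched for inclusion level. The same shares were 67.5% against 49.5% for frame-shifting exons and 98.1% against 72.1% for simple exons of up to 50 nt. With 10 to 20 reads in the shallowest library 27.2% of exons differed by 10 points or more without overlap, and with more than 100 reads 14 of 419 (3.34%) did. The share of non-overlapping exons of any size stayed between 37.9% and 40.9% in every depth range. The median absolute difference between group means was 3.06 points, which was below the 3.86 points between the infarcted libraries and 3.13 points between the uninjured ones, although a group mean averages 2 libraries and so varies less than a single one. Just inside the read limit, 26 exons had at least 10 and under 11 reads in their shallowest library, with a median absolute difference of 7.52 points, and 43 exons just outside it had 8.29 points. At the length limit, 31 exons of 51 nt had a median absolute difference of 3.90 points and 33 frame-preserving exons of 48 nt had 2.88 points.

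**Figure D3:**
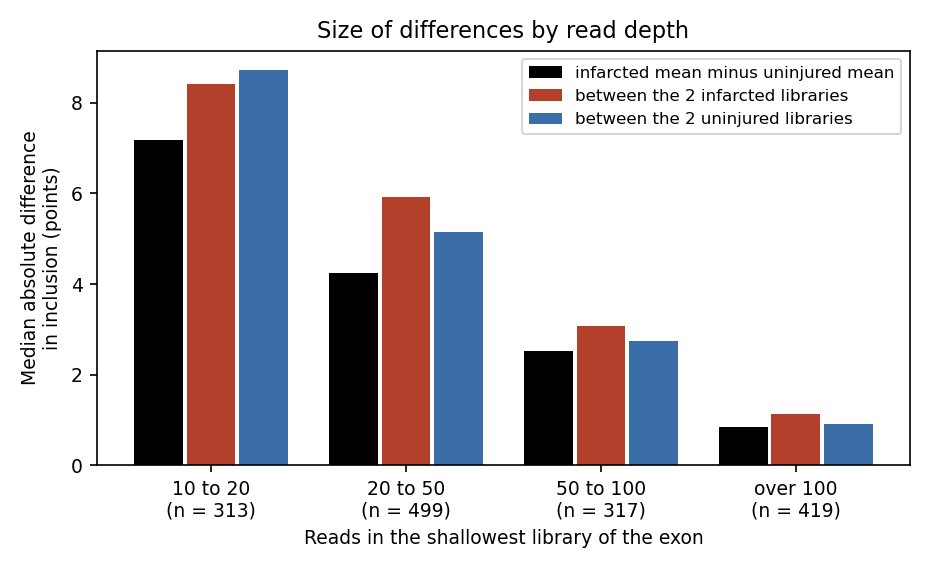
Bars give the median absolute difference in inclusion (points) between group means, between the 2 infarcted libraries and between the 2 uninjured libraries, for exons grouped by the reads of their shallowest library (number of exons in brackets). In the deepest range the medians were 0.845, 1.13 and 0.920 points, and in the shallowest 7.18, 8.41 and 8.71 points. The difference between groups was below both replicate differences at every depth. A group mean averages 2 libraries and so varies less than a single one, so these bars do not compare like with like.

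Among exons with at least 20 reads in each library and no overlap between groups, the largest lower inclusion in infarcted hearts was in Exoc1, a subunit of the exocyst that tethers secretory vesicles to the plasma membrane. Its 54-nt exon (mm9 chr5:76975103-76975156) was included in 33.8% and 26.9% of reads in infarcted replicates 1 and 2, compared with 75.3% and 71.4% in uninjured replicates 1 and 2. The means were 30.3% ± 4.89 in infarcted and 73.4% ± 2.77 in uninjured hearts (SD, n = 2 each), a difference of -43.0 points, with 21 to 31 reads per library. The exon was thus mostly skipped in both infarcted hearts and mostly kept in both uninjured ones, and the edgeR test gave an unadjusted p of 0.00477 and an adjusted p of 0.733.

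Cad encodes the enzyme that carries out the first steps of pyrimidine synthesis, and its 51-nt exon, shown above, was included at 19.3% and 25% in infarcted hearts, compared with 62.2% and 65.4% in uninjured hearts. The 95% Wilson intervals of the infarcted levels, 9.46 to 35.4% and 11.2 to 46.9%, were set against 44.4 to 77.2% and 50.4 to 77.8% for the uninjured levels, and only the second infarcted and the first uninjured interval overlapped. Nasp, a chaperone of histones whose long form carries an extra acidic stretch, had a 975-nt coding exon (mm9 chr4:116283008-116283982) at 39.7% and 46.3% in infarcted hearts, compared with 75% and 84.6% in uninjured hearts. Groups without overlap were required by the rule that chose these exons. The host genes of both exons did not pass the gene-level test, with log2 fold changes of 0.27 ± 0.21 for Cad and 0.11 ± 0.20 for Nasp (SE, infarcted over uninjured).

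Cdc42bpa, a kinase that acts downstream of the GTPase CDC42 on actomyosin, held exons that differed in opposite directions. The 186-nt exon shown above was at 32.4% and 22.7% in infarcted hearts, compared with 57.1% and 72.2% in uninjured hearts. A 243-nt coding exon of the same gene (mm9 chr1:182024075-182024317) was at 46.2% and 38.5% in infarcted hearts, compared with 17.2% and 11.1% in uninjured hearts, although from only 10 to 19 reads per library. In both exons the groups did not overlap, with mean differences of -37.1 and 28.1 points.

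Eml1, a microtubule-binding protein, had its 51-nt exon at 59.1% and 58.3% in infarcted hearts, compared with 95.5% and 80.4% in uninjured hearts. Ppfibp1, which encodes liprin-beta-1, a scaffold of the cell cortex, had its 93-nt exon at 36.1% and 44.4% in infarcted hearts, compared with 60.9% and 75.4% in uninjured hearts, from 50 to 115 reads per library. The Eml1 levels were nearly equal in the infarcted hearts and far apart in the uninjured ones, and Ppfibp1 had the deepest coverage of the 10 lower exons named by size. The Ppfibp1 gene also rose, with a log2 fold change of 0.85 ± 0.21 (SE) and an edgeR adjusted p of 0.00684.

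The remaining 4 of the 10 largest lower exons belong to Gtf3c2, a subunit of the RNA polymerase III factor TFIIIC, with 32.8% ± 8.45 in infarcted and 65.5% ± 9.21 in uninjured hearts, and to Smpd4, a neutral sphingomyelinase, with 39.7% ± 6.29 in infarcted and 67.7% ± 9.46 in uninjured hearts (SD, n = 2 each). The 75-nt exon of 1700021K19Rik, now named Rubcn and known as a brake on autophagy, was at 48% ± 6.12 in infarcted and 77.9% ± 12.3 in uninjured hearts. Smap1, an activator of ARF GTP hydrolysis in clathrin traffic, had an exon of a transcript without a coding part at 10.5% and 6.12% in infarcted hearts, compared with 28.3% and 51.7% in uninjured hearts. All 4 sets of levels were without overlap, as the rule that chose them requires, and the 2 uninjured values differed most in Smap1.

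**Figure D4:**
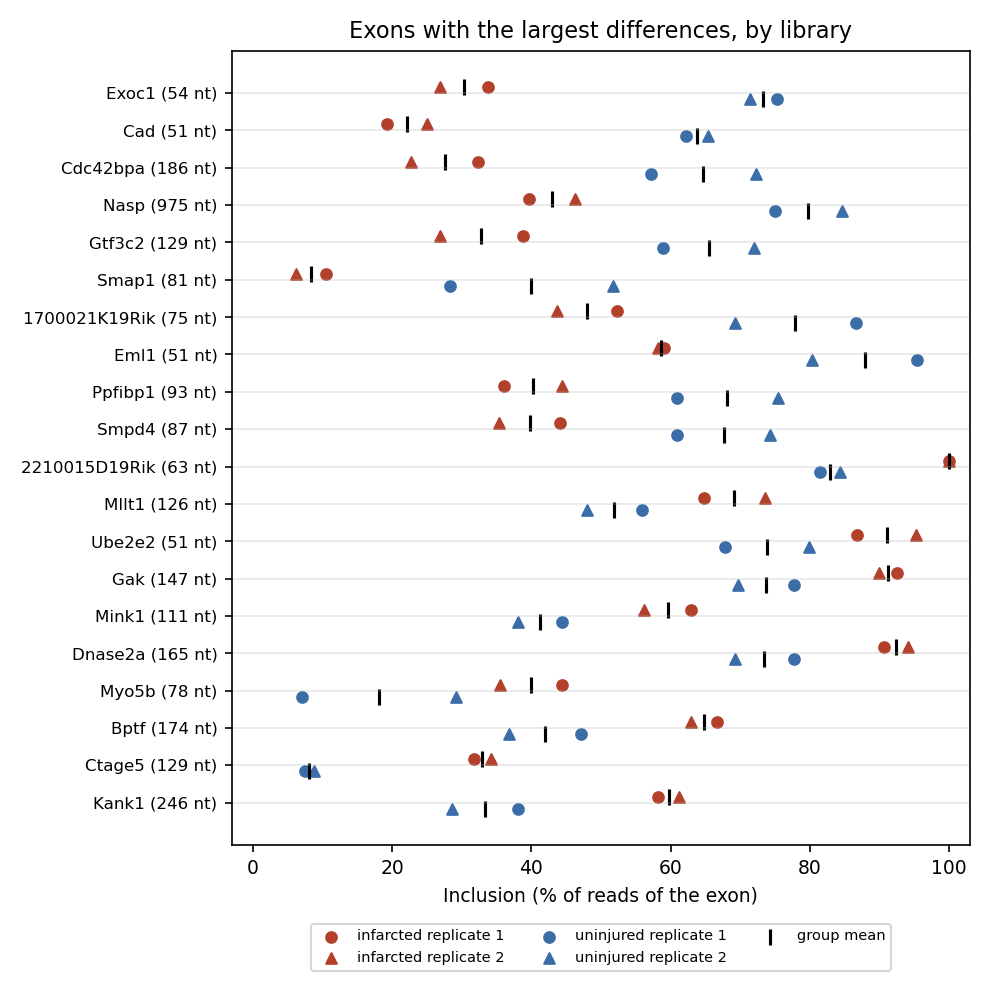
Inclusion level (%) in each of the 4 libraries for the 10 exons with the largest lower and the 10 with the largest higher mean inclusion in infarcted hearts, among exons with at least 20 reads per library and groups that do not overlap. Circles and triangles are replicates 1 and 2, infarcted drawn above uninjured, and vertical ticks are group means; Exoc1 at the top differs by -43.0 points and Kank1 at the bottom by 26.4 points (infarcted minus uninjured).

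The largest higher inclusion among exons with 20 reads or more was in Kank1, a protein that links focal adhesions to the microtubule cortex. Its 246-nt exon was at 58.2% and 61.3% in infarcted hearts, compared with 38.1% and 28.6% in uninjured hearts, a mean difference of 26.4 points. Ctage5, now named Mia2, whose product helps load large cargo such as collagens and lipoproteins at exit sites of the endoplasmic reticulum, had its 129-nt exon at 31.7% and 34.2% in infarcted hearts, compared with 7.43% and 8.75% in uninjured hearts, from 53 to 143 reads. The exon was much more frequent in both infarcted hearts than in either uninjured one, with means of 32.9% ± 1.75 in infarcted and 8.09% ± 0.933 in uninjured hearts (SD, n = 2 each). The edgeR test gave a log2 odds ratio of 2.40 ± 0.55 (SE), an unadjusted p of 0.00343 and an adjusted p of 0.733, and the level of the Ctage5 gene fell, with a log2 fold change of -0.60 ± 0.18 and an edgeR adjusted p of 0.0225.

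Bptf, the largest subunit of the NURF chromatin remodeller, had a 174-nt exon at 66.7% and 63.0% in infarcted hearts, compared with 47.2% and 36.8% in uninjured hearts. Dnase2a, the lysosomal DNase, had a 165-nt exon at 90.7% and 94.1% in infarcted hearts, compared with 77.8% and 69.2% in uninjured hearts. Both pairs of groups were separated by more than their own spread. For Mink1, a kinase of the germinal center kinase family, the 111-nt exon was at 63.0% and 56.3% in infarcted hearts, compared with 44.4% and 38.1% in uninjured hearts. Gak, a kinase that works in clathrin uncoating, and Ube2e2, a ubiquitin-conjugating enzyme, were 17.6 and 17.2 points higher in infarcted hearts, and so was Mllt1, a reader protein of transcription elongation complexes, by 17.2 points. The motor gene Myo5b had 44.4% and 35.5% in infarcted hearts, compared with 6.98% and 29.2% in uninjured hearts, so the gap between the groups was small beside the spread of the uninjured pair. The tenth exon was in 2210015D19Rik, now named Ube2d-ps and annotated without a coding part, where skipping was not seen in 92 and 81 reads in infarcted hearts, which allows up to 3.26% and 3.70% skipping, while inclusion was 81.4% and 84.3% in uninjured hearts. Its name marks it as a pseudogene copy of a ubiquitin-conjugating enzyme, so reads could be shared with near-identical genes and its values are uncertain.

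Genes of the sarcomere and cytoskeleton held 82 of the exons, with 12 lower in infarcted hearts by 10 points or more without overlap and 0 higher (14.6%, near the 12.0% of all events), and a median difference of -0.305 points compared with -0.095 points over all events. Exons of this list with the smallest p include those of Tpm1, Palld and Mtap4. Tpm1, the alpha-tropomyosin that lies along the thin filament, had a 126-nt coding exon (mm9 chr9:66895593-66895718) at 99.78% and 99.70% in infarcted hearts, compared with 99.95% and 99.94% in uninjured hearts. That is a mean difference of only -0.205 points, measured with 27867 to 78100 reads per library, and it has the smallest p of the list, 0.000608 unadjusted and 0.733 adjusted in the edgeR test, with a log2 odds ratio of -2.21 ± 0.37 (SE). Skipping of this exon was thus rare in all 4 hearts, and more frequent in both infarcted ones.

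Palld encodes palladin, an actin cross-linker of Z-discs and stress fibres, and its 51-nt exon was at 76.0% and 81.0% in infarcted hearts, compared with 98.1% and 100% in uninjured hearts. In uninjured replicate 2 none of 69 reads skipped the exon, which allows up to 4.35% skipping. The Palld gene rose, with a log2 fold change of 1.0 ± 0.21 (SE, edgeR adjusted p = 0.00283). Mtap4, now named Map4, encodes a microtubule-stabilising protein of which muscle is known to make a form with a long extra segment. Its 3180-nt coding exon (mm9 chr9:109939792-109942971) was at 22.4% and 26.2% in infarcted hearts, compared with 46.9% and 44.8% in uninjured hearts, with 283 to 380 reads per library. The Wilson intervals, 18.5 to 26.8% and 21.5 to 31.5% in infarcted hearts, lay wholly below 41.3 to 52.5% and 39.1 to 50.6% in uninjured hearts. The other 3 exons of Mtap4 differed by at most -1.08 points.

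A list of 73 genes whose splicing is known to vary in heart muscle, which shares Tpm1 and Palld with the list above, had 64 of the exons, with 6 lower by 10 points or more without overlap and 0 higher (9.38%, compared with 12.0% of all events). Its median difference was -0.463 points. Another exon that the rule for named exons took was in Svil, the actin- and membrane-binding protein supervillin, where a 96-nt exon was at 75.9% and 75.8% in infarcted hearts, compared with 90.6% and 96.2% in uninjured hearts. This list and the other gene lists were chosen with earlier results of these data known, so their directions and shares are not independent evidence.

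Membrane-trafficking genes held 52 of the exons, with 6 lower by 10 points or more without overlap, 0 higher and a median difference of -2.53 points. That share of 11.5% is at the 12.0% of all events. Besides Exoc1, the rule for named exons took Mfn2 and Tbc1d4. Mfn2, which fuses outer mitochondrial membranes, had a 66-nt exon (mm9 chr4:147277037-147277102) at 95.4% and 94.9% in infarcted hearts, compared with 99.0% and 98.4% in uninjured hearts, from 998 to 1454 reads per library. The difference was -3.58 points, with SDs of 0.361 in infarcted and 0.453 in uninjured hearts (n = 2 each), and the edgeR unadjusted p was 0.00384. Tbc1d4, the RAB regulator that gates insulin-driven glucose transporter traffic, had a 165-nt exon at 95.6% and 75.6% in infarcted hearts, while skipping was not seen in either uninjured heart in 91 and 60 reads, which allows up to 3.30% and 5% skipping. The infarcted pair was spread more widely than the distance of its upper value from the uninjured levels. Tbc1d4 was also lower at the gene level, with a log2 fold change of -0.94 ± 0.19 (SE, edgeR adjusted p = 0.00246).

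Of 29 exons in adhesion and matrix genes, 1 was higher and 2 lower in infarcted hearts by 10 points or more without overlap (10.3%, near the 12.0% of all events), with a median difference of 0.210 points. Fn1, the matrix glycoprotein fibronectin, had a 165-nt exon at 98.9% and 98.9% in infarcted hearts, compared with 96.7% and 94.1% in uninjured hearts, with 59 and 79 reads in the uninjured hearts. The Fn1 gene rose, with a log2 fold change of 4.79 ± 0.36 (SE, edgeR adjusted p = 1.48e-05). Ltbp3, a binding protein of latent TGF-beta, had a 120-nt exon at 84.4% and 75.7% in infarcted hearts, compared with 92.0% and 91.2% in uninjured hearts. Scrib, a cell-polarity scaffold, was at 34.6% and 31.4% in infarcted hearts, compared with 38.5% and 67.6% in uninjured hearts, so that the uninjured pair differed by more than the nearest values of the groups. In Tns1, the focal-adhesion protein tensin, inclusion was above 99% in all 4 libraries.

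Ion-transport and calcium genes held 18 exons, of which 1 was lower by 10 points or more without overlap and 0 were higher (5.56%, compared with 12.0% of all events), with a median difference of -1.14 points. That exon was in Cacna2d1, an auxiliary subunit of voltage-gated calcium channels, where a 57-nt exon was at 6.67% and 11.1% in infarcted hearts, compared with 18% and 21.2% in uninjured hearts, from 16 to 36 reads. Asph, which encodes junctin and related proteins of the calcium store, had a 114-nt exon at 98.0% and 98.5% in infarcted hearts, compared with 100% in both uninjured hearts. The 236 and 198 uninjured reads without skipping allow up to 1.27% and 1.52% skipping. Exons of Trdn, the junctional protein triadin, and of Atp2a2, the calcium pump of the sarcoplasmic reticulum, were above 99% in every library.

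Genes of transcription and chromatin had 19 of 55 exons (34.5%) apart by 10 points or more, 8 higher and 11 lower in infarcted hearts, compared with 12.0% of all events, and a median difference of 0.625 points. The share over all events was not matched to this list for inclusion level or depth. The list was also chosen with earlier results known, so its higher share is not independent evidence. Zfp207, a zinc-finger protein of spindle assembly that also binds RNA, had its 93-nt exon at 48.4% and 49.1% in infarcted hearts, compared with 71.4% and 78.2% in uninjured hearts, from 120 to 164 reads. Chd3, a remodeller of the NuRD complex, had a 102-nt exon at 76.7% and 77.3% in infarcted hearts, compared with 93.3% and 90.5% in uninjured hearts. In the opposite direction, Zmiz2, a coactivator of nuclear receptors, was at 96.9% and 100% in infarcted hearts, compared with 87.5% and 85.2% in uninjured hearts. The 37 reads without skipping in infarcted replicate 2 allow up to 8.11% skipping of the Zmiz2 exon. Smarca2, an ATPase of the SWI/SNF remodeller, had a 96-nt exon at 6.03% and 10.4% in infarcted hearts, compared with 1.01% and 2.67% in uninjured hearts. Exons of this list therefore pointed both ways, and each of these 4 had groups without overlap.

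RNA-binding and splicing genes held 58 exons, with 4 lower by 10 points or more without overlap, 0 higher and a median difference of -0.150 points. That share of 6.90% compares with 12.0% of all events. Tnrc6a, a scaffold of microRNA silencing, had a 147-nt exon (mm9 chr7:130323763-130323909) at 22.8% and 24.2% in infarcted hearts, compared with 65.8% and 74.1% in uninjured hearts, from 14 to 25 reads. U2af1l4, a relative of the 3′ splice site factor U2AF1, had a 96-nt exon at 88.0% and 89.6% in infarcted hearts, compared with 95.7% and 97.3% in uninjured hearts. The splicing factor Rbm25 was at 96.3% and 97.9% in infarcted hearts, compared with 100% in both uninjured hearts. There 87 and 108 reads without skipping allow up to 3.45% and 2.78% skipping. Prpf3, of the U4/U6 particle, was at 100% in both infarcted hearts, compared with 92.6% and 95% in uninjured hearts. Its 44 and 35 infarcted reads without skipping allow up to 6.82% and 8.57%, so counting error alone could span the Prpf3 difference. Tnrc6a showed by far the widest gap of these 4, on the fewest reads.

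Signalling genes had 6 exons higher and 10 lower in infarcted hearts by 10 points or more without overlap among 69 (23.2%, compared with 12.0% of all events), and a median difference of 0.055 points. The widest difference was in Vav2, a guanine nucleotide exchange factor, whose 87-nt exon was at 43.8% and 17.2% in infarcted hearts, compared with 75.8% and 81.3% in uninjured hearts, from 17 to 29 reads. The infarcted pair differed by more than 20 points, yet both values lay below the uninjured ones. Apbb2, an adaptor that binds the amyloid precursor protein, had a 63-nt exon at 80.5% and 85.0% in infarcted hearts, while skipping was not seen in 15 and 17 reads in uninjured hearts, which still allows up to 20% and 17.6% skipping.

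Genes that held 4 or more of the exons are given by the range of their mean differences, infarcted minus uninjured. The 5 exons of Ktn1, the kinesin receptor kinectin, ranged from -11.4 to 4.09 points. Arhgap10, a GTPase-activating protein, ranged from -1.43 to 12.7 points, and Irak1, a kinase of interleukin-1 signalling, from -2.31 to 4.43 points. Mtap4 ranged from -21.5 to -0.180 points, Dap3, a mitochondrial ribosomal protein, from -7.13 to -0.225 points, Mapkap1, a subunit of mTORC2, from -2.11 to 2.52 points, and Ivns1abp, an actin-organising kelch protein, from -0.555 to -0.135 points. Directions of the smaller differences in these genes changed when single libraries were left out. In all, 3 exons of these genes, 1 each in Ktn1, Arhgap10 and Mtap4, were apart by 10 points or more without overlap.

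Gene levels were compared for 1288 genes that hold such exons, from counts per gene with the edgeR quasi-likelihood test and Benjamini-Hochberg adjustment over 13905 genes. Of these, 154 (12.0%) rose in infarcted hearts, compared with 18.3% of all genes, and 239 (18.6%) fell, compared with 14.6% of all genes. Leaving out uninjured replicate 2 left 5 genes higher and 0 lower. Without that library 170 were higher and 244 lower if p was left unadjusted and 0.05 was kept as the limit. The counts of genes higher were 86 without infarcted replicate 1 and 95 without infarcted replicate 2, where 130 were lower. Among the 75 tested genes of exons higher by 10 points or more without overlap, 18 rose and 6 fell, and among the 126 tested genes of exons lower by as much, 21 rose and 11 fell. Most exons with a difference of this size thus sat in genes whose level did not pass the test.

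Of 51 listed splicing regulators, 49 were expressed enough to be tested, and 4 rose and 4 fell, against backgrounds of 18.3% and 14.6% of all genes. Rbfox1, which is known to promote muscle exons from downstream intronic sites, had 16.6 and 11.8 CPM in infarcted hearts, compared with 47.5 and 34.1 CPM in uninjured hearts, a log2 fold change of -1.52 ± 0.23 (SE, edgeR adjusted p = 0.000497). Ptbp1, a repressor of tissue-specific exons, had 89.2 and 71.3 CPM in infarcted hearts, compared with 36.9 and 33.3 CPM in uninjured hearts, a log2 fold change of 1.19 ± 0.19 (SE, edgeR adjusted p = 0.000642), and its relative Ptbp3 rose by 0.93 ± 0.20 on the log2 scale (SE, edgeR adjusted p = 0.00369). Rbm38, a splicing factor of muscle differentiation, had a log2 fold change of -1.03 ± 0.20 (SE), Srrm4, known for neural microexons, one of -1.0 ± 0.21, and Khdrbs3, of the STAR family, one of -0.79 ± 0.20. Among factors with arginine-serine repeats, Tra2b and Srrm2 had log2 fold changes of 0.61 ± 0.18 and 0.65 ± 0.21 (SE). In each of these 8 genes, which were chosen by smallest p, both infarcted values lay on the same side of both uninjured ones. Whether any of them acts on the exons above was not tested.

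**Figure D5:**
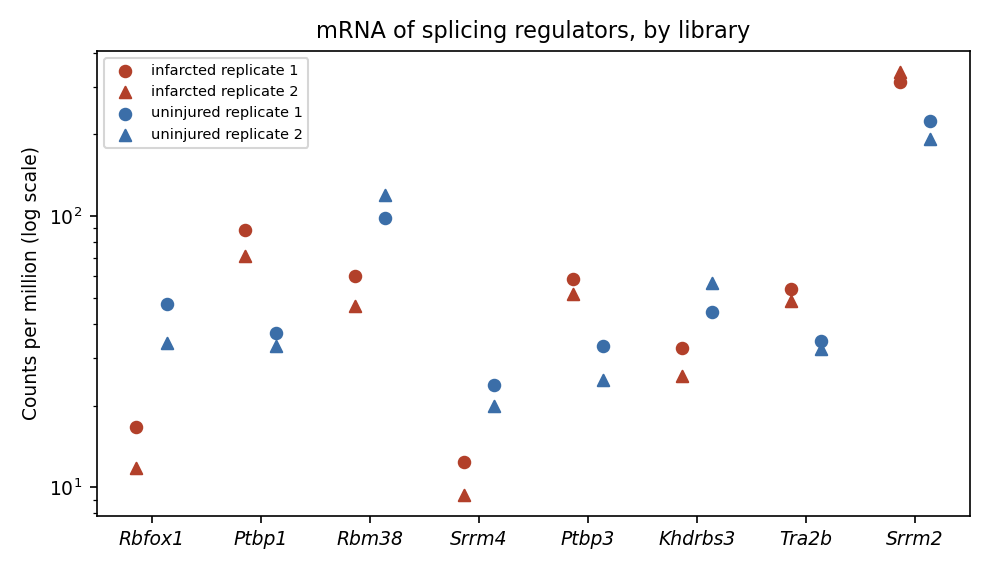
Level in CPM (log scale) in each library for the 8 splicing regulators with the smallest p, infarcted left of uninjured, with circles for replicate 1 and triangles for replicate 2. Rbfox1, Rbm38, Srrm4 and Khdrbs3 lie lower, and Ptbp1, Ptbp3, Tra2b and Srrm2 higher, in both infarcted hearts.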

How the data were processed

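RNA-seq of 2 libraries from infarcted and 2 from uninjured mouse hearts was used. Per the labels, polyadenylated RNA was sequenced as single-end reads of 50 bp. The authors deposited raw counts for 21552 genes, and a table of splicing events with the percent inclusion in each library, calculated from corrected inclusion and exclusion reads that need not be whole. The percent values equal the share of inclusion reads within 0.05 points. Coordinates are on mm9, per the submitters' processing notes. The aligner, the counter, the event caller and whether strand was kept are not named by any source at hand, so overlapping antisense genes and near-identical copies remain uncertain.

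Events with at least 10 reads per library and 5 reads of each form over all libraries were rounded to whole reads and tested in edgeR 4.0.16 (R 4.3.3) for a form-by-group interaction with a term for each library. Splice sites that only complement another were dropped. Gene counts were tested in edgeR with TMM, filterByExpr and robust dispersions. P-values were adjusted by Benjamini-Hochberg over all features and called below 0.05. CPM use TMM library sizes. Intervals of single levels are 95% Wilson intervals, and a limit at 0 is 3 reads of the total. Standard errors were derived from the fold change and the F statistic. Limma 3.58.1 and DESeq2 1.42.0 were alternatives, beside other read minimums, thinned reads, a replicate block and leaving out each library. The tests were checked on simulated data, where weighted limma also made false calls. The simulated spread between libraries was set and not fitted to these data. Exons were tied to GENCODE release 21 without converting coordinates.

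Named exons were the 10 largest higher and the 10 largest lower with at least 20 reads per library and no overlap, the 4 with the smallest p in each gene list, genes with at least 4 of the exons, and the 8 regulators with the smallest p. Exons and lists were chosen with earlier results of these data known. Replicates are separate libraries, and the labels do not state more, so p-values measure the spread between these samples. Columns of other samples in the tables numbered 0. Some genes that these rules take are left out and not reported here.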

Additional observations from a re-analysis of the deposited data

How the results depend on the processing

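Calling 0 exons held in edgeR, DESeq2 and limma without weights, at 5 or 20 reads per library, with exons alone, with legacy=FALSE (added after the data were seen) and without each library in turn (0 to 0), while weighted limma called 27. The 209 exons with groups at least 10 points apart became 126 at 20 or more reads per library and 106 at 15 points. They became 53 of the 598 exons whose quality field read OK in all libraries (added after the data were seen). Without each library in turn they became 274 to 334, where fewer values can overlap by construction. The share over all events was not taken at these other settings, so these counts have no background beside them. Why the count was highest without infarcted replicate 1, and the cause of the other shifts, was not tested. The median difference of -0.14 points stayed between -0.24 and -0.075 points without each library. Host genes called higher ranged over 5 to 131 and those called lower over 0 to 246 without each library. With uninjured replicate 2 left out, the cause of the loss was not tested. The replicate numbers do not pair the hearts in the labels, and same-numbered libraries did not deviate together (correlation -0.0376, 2 pairs); with the replicate block, 0 exons, 165 host genes higher and 261 lower were called. Of 73 named exons run, 19 values moved beyond the replicate spread, all by thinning reads, among them Ltbp3 at -6.25, Mllt1 at 9.52 and Zmiz2 at 6.76 points. For the 45 named by size or by a gene list, no fit turned the log2 odds ratio. It did turn in 12 further exons of genes with 4 or more, whose differences were small. Without infarcted replicate 1 it became -0.39 and 3.08 (Arhgap10, 75 and 72 nt), 0.53 and -0.80 (Mtap4, 114 and 222 nt). Without infarcted replicate 2 it became 0.16 and 2.86 (Dap3, 90 and 93 nt), 0.71 and 0.14 (Irak1, 132 and 117 nt) and -0.42 (Ktn1, 72 nt). Without uninjured replicate 1 it became 0.16 (Ktn1, 87 nt). Without uninjured replicate 2 it became 0.045 (Arhgap10, 72 nt), 0.26 (Dap3, 90 nt), 0.36 and 0.16 (Irak1, 132 and 117 nt), -0.19 (Ktn1, 60 nt), 1.06 (Mapkap1, 138 nt) and -0.024 (Mtap4, 222 nt). Weighted limma gave 0.59 (Mapkap1, 138 nt) and -0.13 (Mtap4, 222 nt), and in both exons the edgeR odds ratio and the difference in mean inclusion also had opposite signs. Thinning or summing reads also turned the sign of the mean difference in the 93-nt exon of Dap3 and in these same Mapkap1 and Mtap4 exons, each under 1 point. The cause was not tested. Where a library is left out, the lone sample of its group is assumed to vary like the other group. With 10 to 20 reads in the shallowest library, replicates differed by a median of 8.41 points in infarcted and 8.71 in uninjured hearts.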
